A study of Mus musculus with 4 samples.

Results

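A set of 10 genes that mark newly formed oligodendrocytes was followed in mouse oligodendrocyte cultures with and without Zdhhc5. The set consists of Enpp6, Bcas1, Gpr17, Tns3, Sirt2, Fyn, Tmem163, Cnksr3, Rras2 and Neu4, taken by gene name from the deposited table, and 10 of these 10 were among its 6940 genes. Zdhhc5 is a palmitoyltransferase, which links a fatty acid to cysteines of other proteins. Precursor cells were immunopanned from C57BL/6 mouse cortex at postnatal day 5 with antibodies to GalC and then O4, were grown for 6 days, and were harvested after 24 h of differentiation with T3, a thyroid hormone, at 40 ng/mL. Control cells were Zdhhc5fl/fl, which carry floxed alleles and no Cre, and conditional knockout (cKO) cells were Olig1cre/+;Zdhhc5fl/fl, in which Cre made from the Olig1 locus acts in the oligodendrocyte lineage. Each genotype had 2 libraries. Only cKO cells carried Cre and a changed Olig1 allele, so effects of these and of the loss of Zdhhc5 cannot be told apart. Zdhhc5 itself was not analysed here.

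Oligodendrocytes form in steps. A dividing precursor leaves the cell cycle and becomes a committed precursor, then a newly formed, premyelinating cell with many branched processes, and finally a cell that wraps axons in myelin. The newly formed stage is short, and its genes are known from sorted and single oligodendrocytes of the mouse brain. Some of them, such as Gpr17 and Neu4, belong to its start and decline as cells mature, whereas Bcas1 and Sirt2 stay on into early myelination.

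Lineage genes were present in all 4 libraries. Olig2, a factor that specifies the lineage, had 6902 and 6850 normalised reads in the controls, against 4828 and 4758 in cKO cells, and Sox10, a factor that drives myelin genes, had 16993 and 16977 against 6493 and 6158. Olig1, whose locus carries Cre in cKO cells, went from 12036 and 11945 to 7250 and 6438. The cultures were not pure by marker RNA. The listed astrocyte markers, 11 of 12, summed to between 511353 and 512203 normalised reads in control cells and to between 764521 and 771559 in cKO cells, with 9 higher and 2 lower. Pericyte and fibroblast markers, 11 of 12 listed and all 11 higher, summed to 5145 to 5343 and then 14508 to 15021. Sums of the 9 of 12 listed neuron markers were 18585 to 18901 and 17482 to 17665 (7 higher, 2 lower), those of the 6 of 12 listed microglia markers 2643 to 2717 and 3834 to 4038 (6 higher), and those of the 4 of 10 listed endothelial markers 2397 to 2541 and 4174 to 4185 (3 higher, 1 lower). Over all listed genes 53.3% were lower in cKO cells. No listed marker was at 0 in any library. The part of these cells in the results on the stage genes was not tested, and in bulk RNA fewer cells of a type and less RNA per cell cannot be told apart.

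All 10 stage genes were lower in the cKO cells. Values are normalised reads, the counts of a gene after division by the size factor of its library, and a call is an adjusted p under 0.05 in limma. The table holds only genes that the authors had called, so 100% of listed genes passed here and 53.3% were lower, and a call of a stage gene adds nothing to that selection. Together the stage genes held 1.23% and 1.24% of the reads of listed genes in the controls, and 0.436% and 0.46% in cKO 1 and cKO 2. The falls ranged from 5.49-fold for Enpp6 to 1.61-fold for Neu4, with a median log2 fold change of -1.46 beside -0.22 over all listed genes. Of the 10 genes, 9 fell by 2-fold or more on the log2(value + 1) scale at the deposited scaling, as did 11.7% of listed genes. Both cKO values lay below both control values for 10 of 10, which also held for 53.3% of listed genes.

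**Figure D1:**
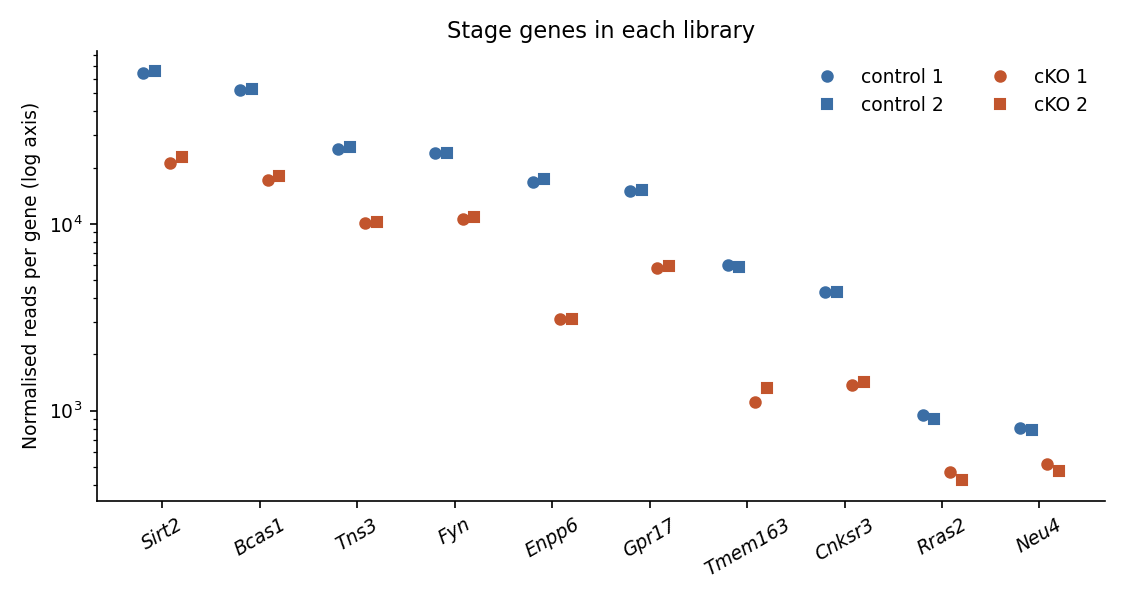
Normalised reads (log axis) of the 10 stage genes in control 1 and 2 (blue) and cKO 1 and 2 (orange), 1 point per library. For each gene both cKO points lie below both control points, with the widest gap for Enpp6.

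Promoter sequence is shown for Enpp6, Sirt2 and Tns3 because their windows, alone among those matched, hold the SOX-type string ACAATG. RefSeq windows (GRCm38.p6) were matched for 8 of the 10 genes, Bcas1 and Gpr17 being the others. Each line gives the 250 bases before the RefSeq start, 5′ to 3′ on the gene's strand, with matches in capitals. For Sirt2 that start lies beyond 28766735, where the gene as listed begins. The windows lie at chr8:46986637-46986886 on the plus strand for Enpp6, chr7:28766502-28766751 on the plus strand for Sirt2 and chr11:8664536-8664785 on the minus strand for Tns3.
Enpp6: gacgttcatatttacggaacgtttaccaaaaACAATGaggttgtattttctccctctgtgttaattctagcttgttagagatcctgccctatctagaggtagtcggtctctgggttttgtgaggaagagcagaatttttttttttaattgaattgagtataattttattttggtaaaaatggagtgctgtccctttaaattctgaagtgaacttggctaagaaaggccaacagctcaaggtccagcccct
Sirt2: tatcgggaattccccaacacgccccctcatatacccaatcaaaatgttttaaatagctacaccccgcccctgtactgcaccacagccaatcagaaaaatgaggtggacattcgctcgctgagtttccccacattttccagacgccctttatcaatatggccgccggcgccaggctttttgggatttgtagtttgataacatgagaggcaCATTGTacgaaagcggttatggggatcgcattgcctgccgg
Tns3: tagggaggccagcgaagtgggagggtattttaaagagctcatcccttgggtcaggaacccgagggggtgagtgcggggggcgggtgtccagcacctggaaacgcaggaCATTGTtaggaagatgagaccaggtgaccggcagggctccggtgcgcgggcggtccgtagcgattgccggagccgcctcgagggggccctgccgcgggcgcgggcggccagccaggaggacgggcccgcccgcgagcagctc
The capitals mark ACAATG on either strand (CATTGT is its reverse complement), which SOX factors such as Sox10 are known to bind. It begins 219 bases before the RefSeq start in Enpp6, 41 in Sirt2 and 142 in Tns3. These letters were found in 3 of the 8 windows and in 10.7% of all 32851 windows of this length. ACAAAG, another SOX-type string, was found in 1 of 8 (Cnksr3) and 16.5% of all, and an OLIG-type E-box, CATATG, its variant CAGATG or the palindrome CAGCTG on either strand, in 2 of 8 (Rras2 and Cnksr3) and 28.1% of all. Any E-box, CANNTG, which includes the OLIG-type forms, was in 5 of 8 and 66.2%. The MYRF-type strings CTGGCAC and CTGGTAC were in 0 of 8 windows and 5.93% of all, and the thyroid receptor half-site AGGTCA in 0 of 8 and 14.0%. Base composition differed widely. The window was 38.4% G and C with 4 CpG in Enpp6, 50.0% with 13 in Sirt2 and 69.6% with 24 in Tns3, against medians of 52.4% and 6 over all windows. A match is a description of letters and not a measured binding site.

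Gpr17 and Neu4 belong to the committed precursor. Gpr17 encodes a G protein-coupled receptor that is switched on as precursors commit and holds back terminal maturation while it is active. It had 14986 and 15233 normalised reads in the controls, against 5795 and 5982 in cKO cells, a 2.57-fold fall (log2 fold change -1.36, SE 0.03, limma adjusted p 1.39e-20). Neu4 encodes a sialidase, an enzyme that removes sialic acid from glycoproteins and glycolipids. Its values were 810 and 792.1 against 516.8 and 478.2, a 1.61-fold fall (log2 fold change -0.69, SE 0.08, limma adjusted p 3.45e-08). Neu4 had the smallest fall of the set, and 1544 of the 6940 listed genes fell by more.

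Enpp6 and Sirt2 encode enzymes. Enpp6 is a choline-specific phosphodiesterase at the cell surface and a marker of cells that have just begun to differentiate. Its gene lies on chromosome 8 from 46986887 to 47096762 of GRCm38. Controls had 16723 and 17313 normalised reads and cKO libraries 3096 and 3101, so that the cKO mean was 18.2% of the control mean (log2 fold change -2.46, SE 0.03, limma adjusted p 7.37e-25). Larger falls were seen in 81 listed genes. Sirt2 is a deacetylase that depends on NAD, acts on tubulin among other proteins, and is found in the myelin sheath. The gene lies on chromosome 7 from 28766735 to 28788661. It had 64338 and 65744 against 21323 and 22822 normalised reads, a 2.95-fold fall (log2 fold change -1.56, SE 0.03, limma adjusted p 3.21e-22). Control values of both enzymes lay far above the cKO values, the lower control exceeding the higher cKO library 5.39-fold for Enpp6 and 2.82-fold for Sirt2.

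Fyn, Tns3, Rras2 and Cnksr3 encode signalling proteins. Fyn is a kinase of the Src family that relays contact with axons and matrix to the cytoskeleton of the oligodendrocyte. It had 23897 and 23978 normalised reads in control libraries, against 10579 and 10832 in cKO ones (log2 fold change -1.16, SE 0.03, limma adjusted p 4.80e-20). Tns3 encodes tensin 3, an adaptor between integrins and actin that is high in immature oligodendrocytes, and its gene lies on chromosome 11 from 8431652 to 8664535. Its values were 25284 and 25962 against 10082 and 10281 (log2 fold change -1.33, SE 0.03, limma adjusted p 4.55e-21). Falls were 2.24-fold for Fyn and 2.52-fold for Tns3.

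Rras2, a small GTPase close to R-Ras that can activate the PI3 kinase pathway, was among the low members. It had 946 and 903.1 normalised reads in control libraries, against 467 and 424.8 in cKO ones, a 2.07-fold fall (log2 fold change -1.05, SE 0.08, limma adjusted p 2.24e-11). Cnksr3 encodes a scaffold protein, and its gene lies on chromosome 10 from 7119063 to 7212237. It had 4322 and 4317 against 1374 and 1420, a 3.09-fold fall (log2 fold change -1.63, SE 0.05, limma adjusted p 1.60e-19). Of these 4 signalling genes, Cnksr3 fell by the most and Rras2 by the least, with the order of Rras2 and Fyn within their intervals.

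Bcas1 and Tmem163 complete the set. Bcas1 encodes a cytoplasmic protein used to recognise oligodendrocytes about to myelinate, and its gene lies on chromosome 2 from 170346991 to 170427845. It had 51967 and 52463 normalised reads in control libraries, against 17149 and 18035 in cKO ones, a 2.97-fold fall (log2 fold change -1.57, SE 0.03, limma adjusted p 1.26e-22). Tmem163 encodes a membrane protein that moves zinc, and its gene lies on chromosome 1 from 127486546 to 127679548. Its values were 6013 and 5897 against 1114 and 1329, a 4.88-fold fall (log2 fold change -2.29, SE 0.06, limma adjusted p 2.02e-20). Replicate cKO libraries differed most, in proportion, for this gene among the 10, their SD being 152.2 on a mean of 1221, and the lower control still exceeded the higher of them 4.44-fold.

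Ordered by the size of the fall, the genes stood as Enpp6, Tmem163, Cnksr3, Bcas1, Sirt2, Gpr17, Tns3, Fyn, Rras2 and Neu4. The 95% intervals of neighbours overlapped between Enpp6 and Tmem163, among Cnksr3, Bcas1 and Sirt2 taken in turn, between Gpr17 and Tns3 and between Fyn and Rras2. They did not overlap between Tmem163 and Cnksr3, where the gap was 0.66 on the log2 scale, between Sirt2 and Gpr17 (0.20), between Tns3 and Fyn (0.17) or between Rras2 and Neu4 (0.36). These gaps were not tested as differences.

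The top of this order depended on base composition. The longest Enpp6 transcript is 42.3% G and C and that of Tmem163 53.2%, against a median of 49.4% over listed genes. With the smooth trend of the values with GC content removed in each library, the log2 fold change of Enpp6 was -1.89 and that of Tmem163 was -2.59, so that Tmem163 then fell by the most, and Cnksr3 (-1.91) and Sirt2 (-1.90) stood level with Enpp6. Rras2, at 45.4%, moved from -1.05 to -0.69, while Sirt2, at 54.2%, moved from -1.56 to -1.90. Tns3, whose exons sum to 11182 bases against a median of 4892.5, moved from -1.33 to -0.88 with the trend with gene length removed instead. Each of the 10 genes still fell and passed under both corrections. Of all 6940 listed genes, 2411 were called lower after GC correction, and 2864 after correction for length instead.

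**Figure D2:**
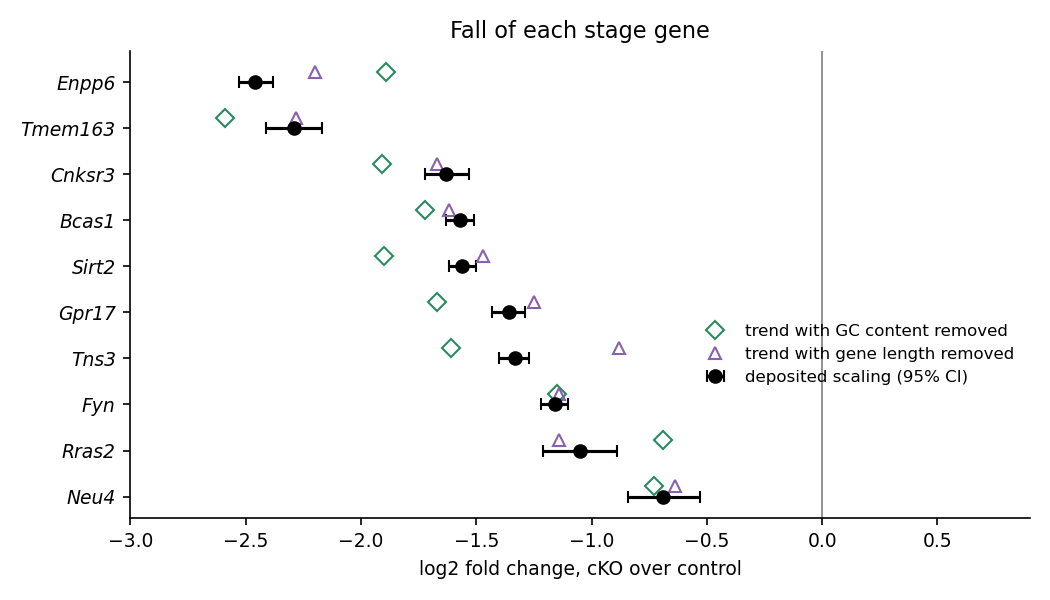
Log2 fold change of cKO over control for each stage gene, with 95% intervals of limma (black), and the same after removing the trend with GC content (diamonds) or gene length (triangles). Enpp6 moves from -2.46 to -1.89 and Tmem163 from -2.29 to -2.59 with GC content removed, and each point lies below 0.

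Levels can be compared between genes only per length. Per kilobase of exon, Bcas1 was the highest of the set in the controls with 13832 normalised reads, followed by Sirt2 with 12918, Fyn with 5486, Gpr17 with 2908, Enpp6 with 2654 and Tns3 with 2291. Tmem163 had 1387, Cnksr3 1126, Rras2 260.1 and Neu4 172.8 per kilobase. No neighbours in this order overlapped over the 2 control libraries. In the cKO libraries the order was the same but for 2 exchanges. Tns3, with 910.5 per kilobase, stood above Enpp6 with 483.2, and Cnksr3, with 364.2, above Tmem163 with 284.6. Again no neighbours overlapped. Among all listed genes ordered by level per kilobase, Enpp6 went from place 295 in the controls to place 1825 in the cKO cells, Bcas1 from 33 to 147 and Sirt2 from 35 to 164.

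Neighbouring genes on the other strand may bear on some counts, since the strand setting was not given in the sources used here. Reads of overlapping exons on opposite strands may then not be told apart. Overlap was taken over whole genes, and whether exons overlap was not tested. Among listed genes, Lims2 overlaps Gpr17, Nfkbib overlaps Sirt2, Mgat5 overlaps Tmem163 and the antisense genes Bcas1os1 and Bcas1os2 overlap Bcas1. Enpp6, Fyn and Rras2 are overlapped only by genes that were not listed. Mgat5, which encodes a glycosyltransferase, rose from 2299 and 2319 to 3133 and 3077 normalised reads while Tmem163 fell. Bcas1os2 fell from 173 and 162.9 to 18.8 and 21.4, an 8.37-fold change beside the 2.97-fold fall of Bcas1, and it held few reads by comparison. Lims2, which encodes an adhesion adaptor and is itself known from newly formed oligodendrocytes, fell 1.71-fold, and Nfkbib, an inhibitor of NF-kB, 1.30-fold, a call that was lost with DESeq2.

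Ratios within a library do not depend on how libraries were scaled, and they place the stage genes beside the lineage factors. Relative to Olig2, 10 of 10 stage genes were lower in both cKO libraries than in both controls. By log2 fold change, 31.4% of all listed genes fell by more than Olig2. The log2 ratio of Enpp6 to Olig2 was 1.28 and 1.34 in the controls and -0.64 and -0.62 in cKO cells, a shift of -1.94. That of Neu4 to Olig2 was -3.09 and -3.11 against -3.22 and -3.31, a shift of only -0.17. The remaining shifts lay between those 2 values. With the trend with GC content removed, the falls of Rras2 and Neu4 became smaller than that of Olig2, by 0.26 and 0.22 on the log2 scale. Their place relative to Olig2 thus turned, and Neu4 also turned (0.14) with the length trend removed. Olig2 itself moved, from -0.52 to -0.94 with the GC trend removed and to -0.78 with the length trend removed.

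Relative to Sox10, which fell 2.69-fold, the set divided. Enpp6, Tmem163, Cnksr3, Bcas1 and Sirt2, 5 of 10, had lower ratios to Sox10 in both cKO libraries than in both controls. By log2 fold change, 5.52% of all listed genes fell by more than Sox10. The log2 ratio of Enpp6 to Sox10 went from -0.02 and 0.03 to -1.07 and -0.99, and that of Tmem163 from -1.50 and -1.53 to -2.54 and -2.21. For Bcas1 and Sirt2 the shifts were small, -0.14 and -0.13. Ratios of Fyn, Rras2 and Neu4 to Sox10 were higher in the cKO libraries, by 0.26, 0.37 and 0.74. That of Tns3 was 0.57 and 0.61 against 0.63 and 0.74, and that of Gpr17, -0.18 and -0.16 against -0.16 and -0.04, overlapped between the groups. With 2 libraries against 2, an exact permutation test cannot give a two-sided p below 1/3, so none was used. With the GC trend removed the shift of Enpp6 relative to Sox10 was -0.01 and that of Tmem163 was -0.70, while that of Bcas1 turned to 0.17, and that of Sirt2 turned to 0.14 under length correction. With both trends removed, Tmem163 (-0.63) was the only one of the 5 still below Sox10, Enpp6 standing at 0.19 and Cnksr3 at 0.02. Of the 2 genes that stood furthest below Sox10, then, Tmem163 kept that place under this correction and Enpp6 did not. Sox10 itself moved as well. Its log2 fold change went from -1.43 to -1.88 with the GC trend removed and to -2.01 with both trends removed.

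**Figure D3:**
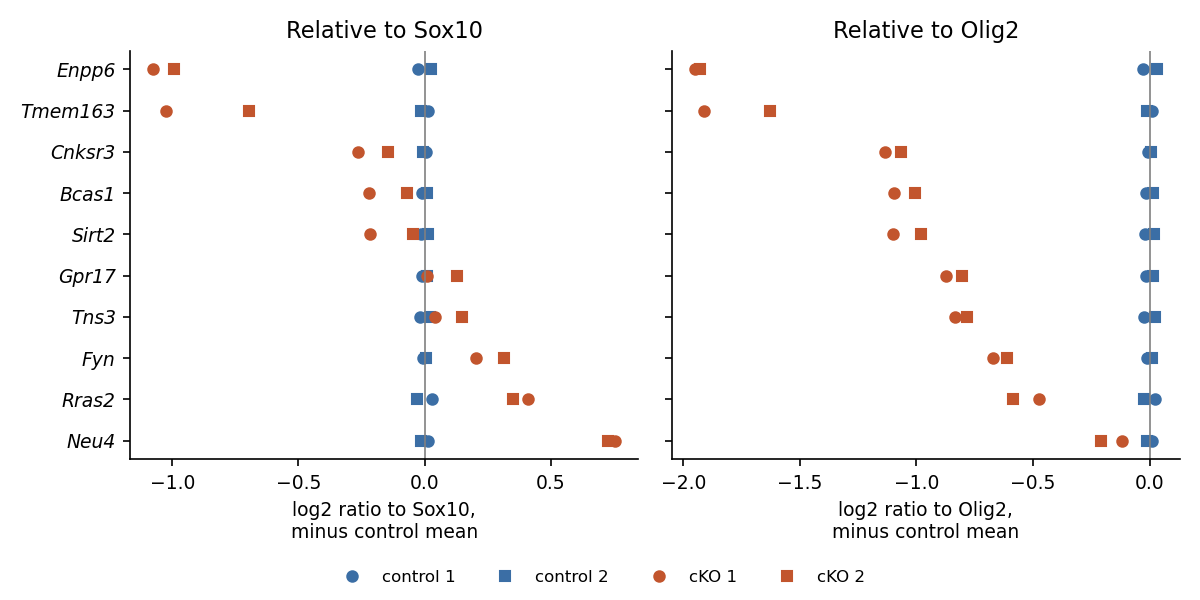
Log2 ratio of each stage gene to Sox10 (left) and Olig2 (right) in each library, minus the mean of the controls, with controls in blue and cKO libraries in orange. Enpp6 lies 1.03 below its control mean relative to Sox10 and Neu4 lies 0.74 above it, whereas relative to Olig2 each cKO point lies below the controls, an order that turned for Rras2 and Neu4 with the GC trend removed and for Neu4 with the length trend removed.

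Other genes known from newly formed oligodendrocytes fell as well. Of 25 further genes 22 were listed, of which 22 fell and 0 rose, the median of their log2 fold changes being -1.41, beside 53.3% of all listed genes that fell. Of these, 18 fell by 2-fold or more before other scaling or correction, as did 11.7% of all listed genes. At the deposited scaling the largest falls were those of 9630013A20Rik, a noncoding RNA of the lineage, from 2357 and 2299 to 258.8 and 250.4 normalised reads (9.14-fold), and of Frmd4a, a scaffold protein of cell polarity, from 9012 and 9493 to 2146 and 2061 (4.40-fold). After GC correction the value for 9630013A20Rik on the log2 scale went from -3.19 to -2.11. This was a smaller fall than those of Frmd4a (-2.38), Nfasc (-2.37) and Myrf (-2.20). With the length trend removed the value for Frmd4a went from -2.14 to -1.40. Myrf, the factor that switches on myelin genes, fell 3.44-fold and Itpr2, a calcium release channel used as a marker of this stage, fell 2.95-fold. The call of Idh1, an enzyme that supplies NADPH, was lost after GC correction (log2 fold change -0.07). Casr, Gp1bb and 1810041L15Rik were not analysed here. The lists were chosen with earlier results of these data known, and their differences were not tested.

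Earlier and later stages moved by other amounts. Of 20 precursor genes 16 were listed, 10 lower and 6 higher, beside 53.3% lower over all listed genes. Their median was -0.43 on the log2 scale, or 0.02 with the trend with gene length removed. Under that correction 6 were called lower and 5 higher, beside 2864 and 2707 of all 6940 listed genes. Lhfpl3, a membrane protein of precursors, fell 3.57-fold (-1.84 on the log2 scale, which became -1.22 after GC correction) and the matrix protein gene Tnr 3.28-fold, while Cspg5, a proteoglycan, rose 1.62-fold. Of 26 genes of myelin and mature cells 20 were listed, 16 lower and 4 higher, beside the same 53.3%, with a median of -2.25. Mobp, a myelin protein, fell 17.2-fold. Apod, a lipid carrier, rose 5.12-fold and Ndrg1, a stress-responsive gene, 1.97-fold. The 4 lineage factors had a median of -0.76.

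**Figure D4:**
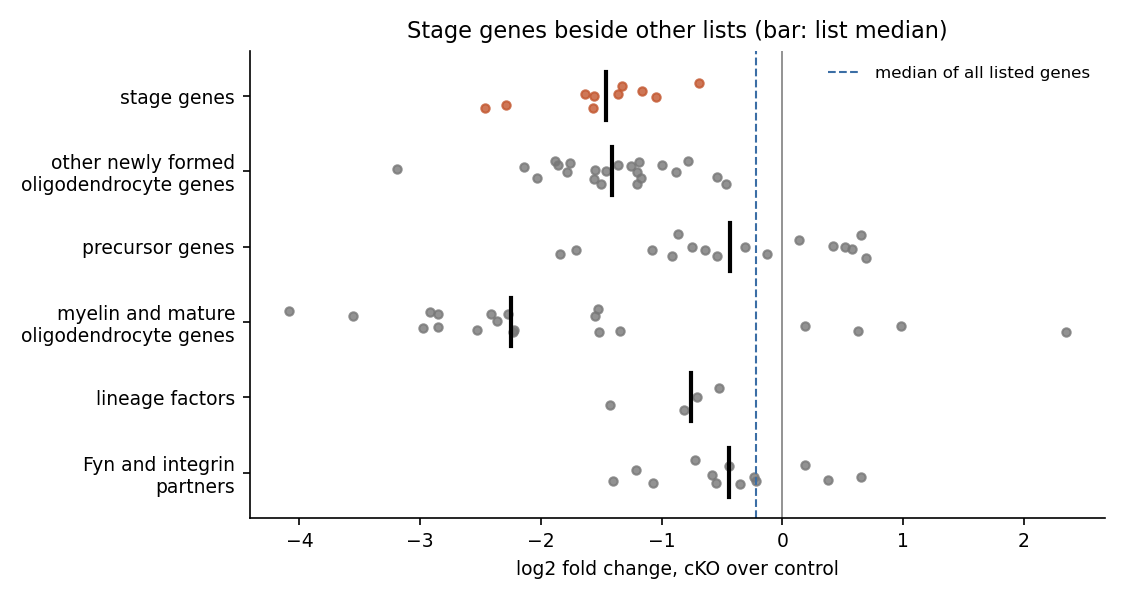
Log2 fold change of cKO over control for the listed members of 6 lists, 1 point per gene, with a bar at each median and a dashed line at the median of all listed genes, -0.22. The stage genes (orange, median -1.46) lie beside other newly formed genes (-1.41), between the medians of precursor genes (-0.43) and of myelin genes (-2.25).

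Relatives of the stage genes within the same protein families were also followed. Of 25 relatives 12 were listed, 6 lower and 6 higher, a split near the 53.3% lower over all listed genes, and their median was 0.06 on the log2 scale. With GC and length trends both removed, 5 were called lower and 3 higher, beside 2489 and 2269 of all listed genes. Enpp2, which encodes autotaxin, an enzyme secreted by oligodendrocytes that makes lysophosphatidic acid, fell from 8662 and 8921 to 3548 and 3710 normalised reads (log2 fold change -1.28). Enpp1, which makes pyrophosphate outside cells, rose from 84 and 104.9 to 281.7 and 300.2 (1.62). Enpp4 fell by 0.35 on the log2 scale, a direction that reversed to 0.21 after GC correction.

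Among tensins, Tns1 fell (log2 fold change -0.94, and -0.34 with the length trend removed) and Tns2 rose (0.55, and 0.13 with no call with the GC trend removed). Among sirtuins, Sirt1, a nuclear deacetylase, fell from 377 and 402.2 to 237.6 and 160.2 normalised reads, and Sirt3, a mitochondrial one, rose from 466 and 462.2 to 641.8 and 586.2. In the Src family, Yes1 fell 2.04-fold (-1.02 on the log2 scale, which became -0.38 after GC correction and -0.28 after correction for length too) and Src rose 1.35-fold, a log2 fold change of 0.44 that was 0.01 with no call with the GC trend removed. Beside the fall of Rras2, its relatives Rras and Mras rose 1.65-fold and 1.39-fold, the call of Rras being lost with GC and length trends both removed (log2 fold change 0.11). Neu1, the lysosomal sialidase, fell 1.21-fold, a call lost with relative log expression scaling and with DESeq2. The calls and directions of Enpp1, Enpp2, Tns1, Sirt1, Sirt3, Yes1 and Mras held in the 19 alternatives run.

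**Figure D5:**
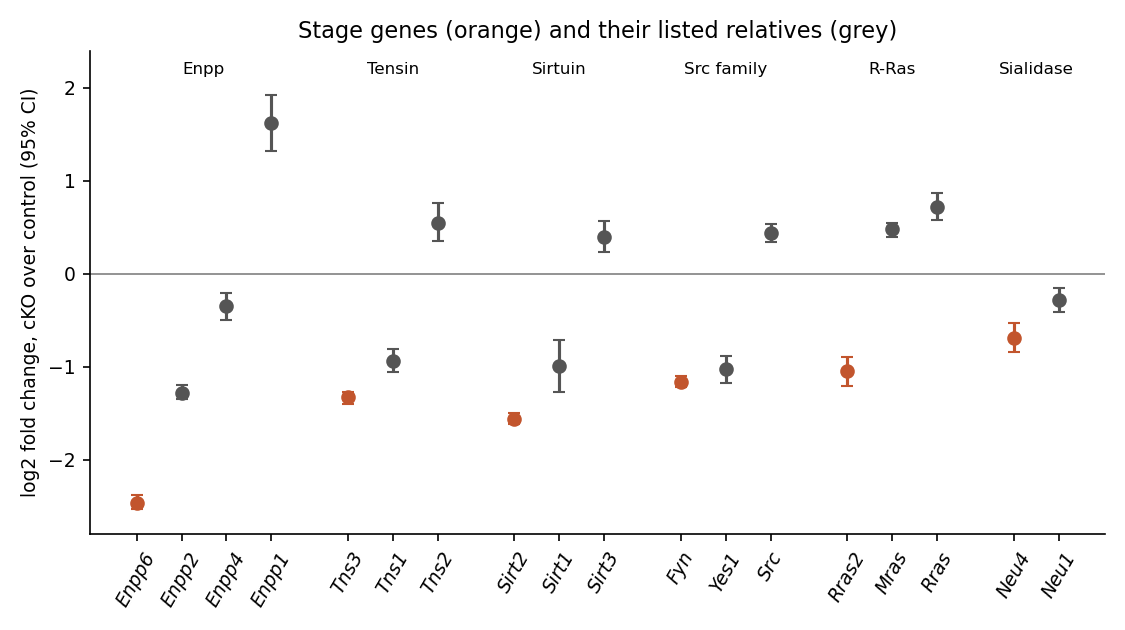
Log2 fold change of cKO over control with 95% intervals of limma for stage genes (orange) and their listed relatives (grey), grouped by protein family. The stage gene has the lowest value in each family, with overlapping intervals for Fyn and Yes1 before GC correction, and Enpp1, Tns2, Sirt3, Src, Mras and Rras lie above 0 at the deposited scaling, Src turning to -0.04 with GC and length trends removed.

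Partners of Fyn and of integrins, listed for 13 of 18, were lower in 10 cases and higher in 3, beside 53.3% lower over all listed genes, and their median was -0.44 on the log2 scale. With the length trend removed 7 were called lower and 4 higher (median -0.31), beside 2864 and 2707 of all listed genes. With GC and length trends both removed 6 were called lower and 2 higher (median -0.11), beside 2489 and 2269 of all listed genes. Dcc, a netrin receptor, fell from 585 and 677.1 to 239.2 and 236.1 normalised reads, and Arhgap5, a GTPase-activating protein, fell from 5111 and 4944 to 2167 and 2170. The fall of Arhgap5, -1.21 on the log2 scale, became -0.17 after GC correction and -0.02, with no call, after correction for length as well. Parva, an adaptor of integrin-linked kinase, rose 1.57-fold. Lingo1, a receptor that restrains differentiation, rose 1.30-fold, a call lost after GC correction (log2 fold change -0.04). Csk, Ilk, Ptpra, Pxn and Tln1 were not analysed here.

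The listed genes whose profiles over the 4 libraries were nearest to those of 4 stage genes were found by the Euclidean distance of centred log2 values. For Enpp6 these were Pik3r3, a PI3 kinase regulatory subunit (distance 0.066), and Mag, an adhesion protein of myelin (0.083). For Bcas1 they were Slc44a1, a choline transporter (0.014), and Sirt2 (0.024), and for Sirt2 they were Bcas1 and Slc44a1 (0.032). For Tns3 they were Cnp, an enzyme of myelin (0.017), and Pcdh11x, a protocadherin (0.024). Slc44a1 had 12641 and 12802 normalised reads in control libraries, against 4219 and 4384 in cKO ones. Over 4 libraries in 2 groups, this measure mostly reads the size of the difference between genotypes.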

How the data were processed

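RNA-seq of 4 libraries, 2 control and 2 cKO, was analysed from 1 deposited table. For each gene the authors deposited a signal per library, genotype means, a log2 fold change, a p-value and an adjusted p-value, per the file headers. The signal was read here as the read count divided by the size factor of its library, which the headers do not state. In control 1 the value of 1 read was 1.0, so its signals equal its reads. The submitters' processing notes name DESeq2 and the builds mm10 and GRCm38, which denote 1 mouse assembly. Not given in the sources used here were the aligner, counter and strand setting. Listed gene lengths equal the summed exons of GENCODE M21 for the 10 stage genes. Columns of other samples numbered 0.

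All 6940 values of a library were multiples of its own step (100% within 0.01 read), which gave back whole reads. Over listed genes these came to 17077509 and 16773675 for control cells and 20068016 and 13672254 for cKO cells. A stage gene had from 358 to 64574 reads in a library. The table holds genes with an adjusted p up to 0.0499, and the adjusted p-values imply 17347 genes tested by the authors, 40.0% of them listed.

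Genotypes were compared with limma 3.58.1 on log2(value + 1) with a variance trend and 2 residual degrees of freedom, over all 6940 genes with a value of at least 1 in 2 libraries, with Benjamini-Hochberg adjustment over 17347. Since the table holds called genes only, the variance shared among them may be an underestimate. The labels do not say whether libraries came from separate cultures or animals, so p-values rest on a spread that may be technical. The planned test for counts, edgeR, became an alternative since the values were normalised. GC content was that of the longest GENCODE transcript (6934 genes), and trends were lowess fits. Alternatives included edgeR 4.0.16 and DESeq2 1.42.0 on recovered reads, other scalings, filters and pseudocounts, and leaving out each library.

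The members, gene lists and tests were chosen with earlier results of these data known. Named were the 10 stage genes, all listed relatives, the 2 largest falls and 2 largest rises of each other list of oligodendrocyte or signalling genes, Olig1, Olig2 and Sox10, and the 2 nearest profiles of 4 stage genes. Marker lists of other cell types are given as sums and counts, without the named genes that the rule allowed, and 2 other genes that the rule named are not reported here. Myrf, Nfasc, Itpr2, Idh1, overlapping genes and genes not analysed were named after their values were seen.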

Additional observations from a re-analysis of the deposited data

How the results depend on the processing

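In each of the 19 alternatives all 10 stage genes stayed lower in the cKO cells. Where each genotype kept 2 libraries all 10 also passed, the largest adjusted p being 0.00193 (Neu4, limma without the variance trend). Those alternatives called from 2411 (GC trend removed) to 3696 listed genes lower, out of genes that the authors had all called. The median log2 fold change of the stage genes, -1.46, was -1.39 with edgeR, with TMM scaling and with equal totals. It was -1.27 with DESeq2 and with relative log expression scaling, which raised the median of all listed genes by 0.191. It was -1.36 with the trend with gene length removed, -1.69 with the GC trend removed and -1.73 with both removed, an alternative chosen after seeing the data. Leaving out 1 library at a time gave -1.49 to -1.42, and in these 4 fits the lone library of a genotype is assumed to vary like the pair of the other. The count of stage genes that fell by 2-fold or more also depended on the setting. With DESeq2, Fyn (log2 fold change -0.97) and Rras2 (-0.86) fell by less than that, as did Tns3 (-0.88) with the length trend removed. With the GC trend removed, 2411 listed genes were called lower and 2304 called higher, against 3696 and 3244 in the main fit, so many calls were lost. The median of precursor genes turned to 0.02 with the length trend removed, and that of endothelial markers to -0.06 with a minimum of 100 in 2 libraries, which left 2 of them. For these shifts with scaling, length or GC content the cause was not tested. Same-numbered libraries did not deviate together (correlation 0.0133), and a replicate block called 3696 genes lower and 3242 higher, with a stage gene median of -1.46. The 2 libraries a genotype, and the listing of called genes only, limit what these data can show of genes that did not change.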

Other observations

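Ratios within a library also set stage genes against relatives and against myelin RNA. The log2 ratio of Enpp6 to Enpp1, a pair of phosphodiesterase relatives, was 7.62 and 7.35 in control cells, against 3.45 and 3.36 in cKO cells. That of Rras2 to its relative Rras was 0.42 and 0.52 in control cells, against -1.27 and -1.33 in cKO cells. This contrast narrowed with the GC trend removed, where the log2 fold change was -0.69 for Rras2 and 0.3 for Rras. With GC and length trends both removed the values were -0.78 and 0.11. The log2 ratio of Sirt2 to Sirt3 shifted by -1.96, that of Tns3 to Tns2 by -1.89 and that of Fyn to Src by -1.60. Shifts were smaller against relatives that fell themselves. They were -1.18 for Enpp6 to Enpp2, -0.57 for Sirt2 to Sirt1, -0.41 for Neu4 to Neu1 and -0.39 for Tns3 to Tns1. The ratio of Fyn to Yes1 went from 4.27 and 4.42 to 4.14 and 4.27, a shift of -0.14 with groups that overlap. That contrast between Src and Yes1 narrowed with the GC trend removed, where the log2 fold change was -1.15 for Fyn, -0.38 for Yes1 and 0.01 for Src.

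Enpp6 fell by less than Mbp, a myelin RNA. Its log2 ratio to Mbp was -2.89 and -2.84 in control cells, against -2.38 and -2.43 in cKO cells, 0.46 higher. Within the set, ratios of Enpp6 to each of the other stage genes were lower in cKO cells. The shift was smallest against Tmem163 (-0.17, with 1.48 and 1.55 in control cells, against 1.47 and 1.22 in cKO cells) and largest against Neu4 (-1.77). With the GC trend removed Enpp6 (log2 fold change -1.89) no longer fell by more than Tmem163 (-2.59), Cnksr3 (-1.91) and Sirt2 (-1.90), and with the length trend removed as well it was at -1.82, against -2.64, -1.98 and -1.91. With only the length trend removed it was at -2.20, against -2.28 for Tmem163.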
